A study of Mus musculus with 2 samples.

Results

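Autophagy and lysosome genes were compared between rib chondrocytes of Matn1 V156D knock-in mice and of wild-type mice. The set of 49 genes was named by function: the autophagy core, lysosomal membrane proteins and hydrolases, and the TFEB family of transcription factors. A gene was measured when at least 1 probe set of the array, a group of short probes for 1 transcript, was annotated to that gene symbol alone. This held for 48 of the 49 genes, with 112 probe sets, out of 18193 genes measured in the whole series, and Cd63 was not analysed here. The V156D group was 1 array of rib cartilage cells from animals with the V156D mutation of Matn1, which encodes the cartilage matrix protein matrilin-1. The wild-type group was 1 array of the same cells from wild-type animals. Both were taken at 5 days of age, the cells were freed with collagenase, and RNA was extracted from cells pooled over 5 littermates. The sources used here do not give the number of animals behind each array, their sex, or whether 1 or both copies of Matn1 carried the mutation.

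Autophagy is the route by which a cell encloses its own proteins and organelles in a double membrane, the autophagosome, and delivers them to the lysosome for breakdown. The lysosome is kept acidic by a proton pump, and its hydrolases digest the cargo. Chondrocytes secrete large amounts of matrix protein, and autophagy and the lysosome dispose of part of the protein that is misfolded or not secreted. The transcription factor TFEB and its relatives MITF and TFE3 are known to induce many lysosome and autophagy genes together.

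The values are intensities on a linear scale, and ratios are V156D over wild type on the log2 scale, so that a positive ratio means a higher signal in the V156D array. Each gene is given by its brightest probe set, the one with the highest mean log2 intensity over both arrays, and by the mean ratio over all its probe sets. A signal floor was set at the median of all probe sets, an intensity of 54.6. Each genotype was measured once, so no value below has a replicate SD, a standard error or a test, and a difference between the arrays is not shown to be one between genotypes. The spread over probe sets of 1 gene shows probe error within these arrays only. The arrays had median intensities of 55.1 for V156D and 54.3 for wild type. The chondrocyte genes Col2a1, Acan, Comp and Matn1 had their signals far above the floor in both arrays, so both held chondrocyte RNA. Sox9 had the lowest ratio of the 7 chondrocyte markers, with 2555 in V156D and 3134 in wild type (-0.29). Some fibroblast markers were also bright, such as Col1a2 with 19270 in V156D and 13342 in wild type. These signals therefore do not give the share of chondrocytes among the cells. Matn1 itself had 4340.1 in V156D and 4373 in wild type, which does not check the labels, since the mutation changes 1 residue.

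The autophagy and lysosome genes differed little in signal between the arrays. Of the 48 genes, 47 lay at or above the floor, and 0 of these 47 differed 1.5-fold or more in either direction. Over all 11329 genes at or above the floor, 3.72% differed by that much, 1.7% higher and 2.02% lower in the V156D array. At that share a set of 47 genes would hold few such genes, so the count of 0 does not set it apart. The ratios of the 47 genes ran from -0.40 for Atg5 to 0.31 for Wipi1, with 23 above 0 and 24 below 0 and a median of -0.03. All genes at or above the floor had a median of -0.02, with 44.8% of them above 0. Of the 47 genes, 43 (91.5%) lay within 0.25 of 0, against 77.0% of all genes. The SD of the ratios over genes was 0.16 for the set and 0.27 for all genes. All 47 genes also lay above a floor at the 60th percentile, and all genes were not matched to the set by signal. The narrower spread of the set is therefore a description only. No member reached 2-fold, as 0.909% of all genes did, 0.653% higher and 0.256% lower. As means over probe sets, none of 44 members at or above the floor reached 1.5-fold, against 2.79% of 9935 genes. Over the same 47 genes these means were 25 above 0 and 22 below 0, with a median of 0.02. The sign differed from that of the brightest probe set for 6 genes. Fewer cells of a type and less RNA per cell cannot be told apart in RNA from pooled cells.

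**Figure D1:**
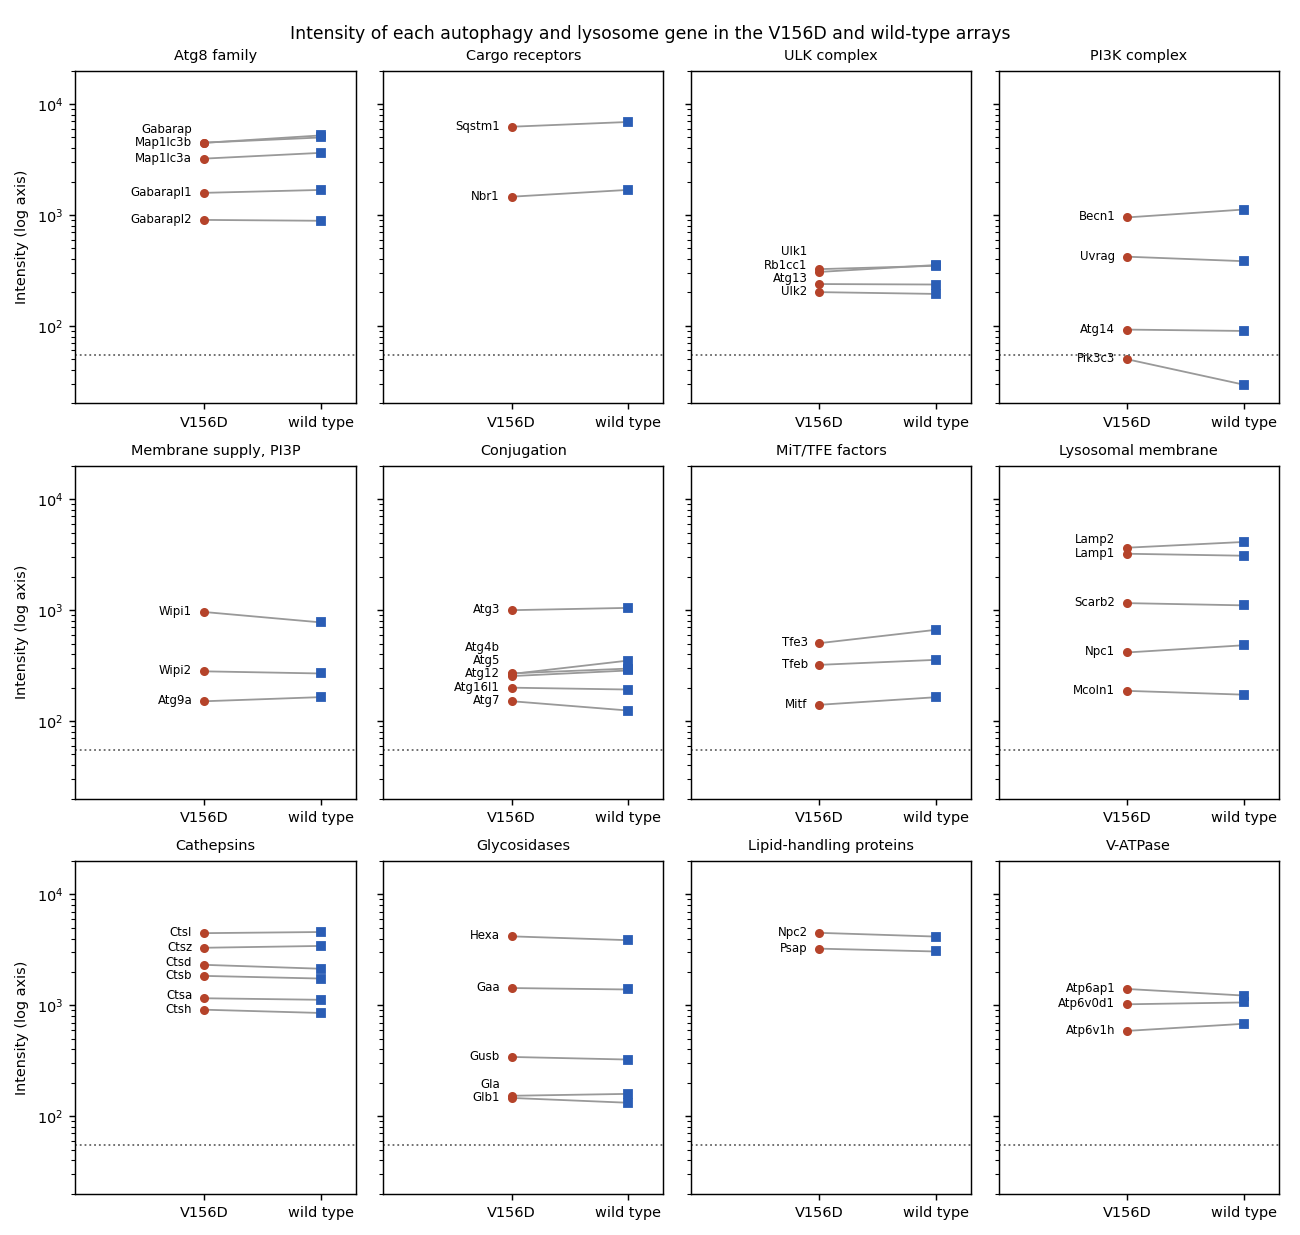
Intensity (log axis) of the brightest probe set of each of the 48 genes in the V156D array (circles, left of each panel) and the wild-type array (squares, right), 1 panel per role. The dotted line is the signal floor of 54.6, and the lines that join the arrays are close to level for all genes but Pik3c3, which lies below the floor in both arrays.

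At a lower threshold, a log2 ratio of 0.32, 2 of the 47 genes differed, both lower in the V156D array, and none was higher by that much. The share of all genes past it was 14.8%, with 9.25% lower and 5.57% higher. The pair was Atg5, which belongs to the conjugation machinery, and Tfe3, a transcription factor. Wipi1 was just short of it at 1.24-fold higher.

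Autophagosomes begin with the ULK kinase complex, and its 4 genes had small ratios of both signs. Ulk1, the kinase that starts the process, had an intensity of 325 in the V156D array and 348 in the wild-type array, a ratio of -0.10. Ulk2, a second kinase of the same type, had 201 in V156D and 194 in wild type (0.05). Its 3 probe sets at or above the floor were all higher in the V156D array, from 0.02 to 0.39. Rb1cc1, which encodes the scaffold FIP200, had 306 in V156D and 354 in wild type (-0.21), and both of its probe sets above the floor were lower. The remaining Rb1cc1 probe set, below the floor, gave 0.34 and brought the mean over probe sets to -0.01. Atg13, the adaptor of the complex, had 238 in V156D and 236 in wild type (0.01), while a second probe set above the floor gave -0.39. The probe sets of Atg13 thus disagreed by more than any of the 4 brightest ratios.

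The next step is made by the class III PI 3-kinase, which marks the growing membrane with the lipid PI3P. Its catalytic subunit gene Pik3c3 (VPS34) had intensities of 49.996 in V156D and 29.5 in wild type, a ratio of 0.76 or 1.70-fold. Both values lay below the floor and came from a single probe set, and adding 32 to every intensity before log2 brought the ratio to 0.42. Without any floor, 1.53% of 18193 genes were at least 1.5-fold higher. Becn1, which encodes the regulatory subunit beclin 1, had 949 in V156D and 1119 in wild type (-0.24). All 5 Becn1 probe sets were lower in the V156D array, from -0.54 to -0.04, and the 2 above the floor gave -0.24 and -0.07. Atg14, which directs the complex to autophagosomes, had 92.5 and 89.9 (0.04) in V156D and wild type. Uvrag, which directs it to endosomes, had 420.2 in V156D and 383 in wild type (0.13). The 3 subunits with signal above the floor thus differed in sign.

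Membrane supply and the proteins that read PI3P gave the highest ratio among the 47 genes at or above the floor. Wipi1, a PI3P-binding protein of early autophagosomes, had an intensity of 962 in V156D and 775 in wild type, a ratio of 0.31. Each of its 6 probe sets lay at or above the floor and was higher in the V156D array, from 0.09 to 0.33, with a mean of 0.21 and an SD of 0.10 over these probe sets. Wipi1 thus had more probe sets of 1 sign than any other gene of the set, although its ratio was short of 0.32. Wipi2, a related protein that recruits the conjugation machinery, had 281 in V156D and 268 in wild type (0.06), with its probe sets on both sides of 0. Atg9a, a lipid scramblase of the vesicles that seed the membrane, had 151 in V156D and 164 in wild type (-0.12).

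The conjugation machinery attaches Atg8-type proteins to lipid, and 4 of its 6 genes were lower in the V156D array. Atg5, part of the complex that carries out the last step, had 266 in V156D and 351 in wild type, the lowest ratio of the set at -0.40. Its 3 probe sets were all lower, at -0.40, -0.28 and -0.07, so the size of the difference depended on the probe set while the sign did not. Atg12, which is joined to the Atg5 protein, had 254 in V156D and 286 in wild type (-0.17), and its 2 probe sets above the floor both gave -0.17. Atg16l1, the remaining partner of that complex, had 199.9 in V156D and 192 in wild type (0.06). The 3 partners thus did not share a direction. Atg7, the E1-like enzyme that activates both Atg12 and the Atg8 proteins, had 151 in V156D and 124 in wild type (0.28). All 4 Atg7 probe sets were higher in the V156D array, from 0.14 to 0.52, with a mean of 0.34, the highest mean of any gene of the set above the floor. Atg3, the E2-like enzyme, had 999 in V156D and 1048 in wild type (-0.07), but 0.07 as the mean over probe sets. The protease Atg4b, which trims Atg8 proteins, had 269 and 297 (-0.14) in V156D and wild type, or -0.01 as the mean.

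The Atg8 family itself, the small proteins that coat the autophagosome, had ratios below 0 for 4 of 5 genes. Map1lc3a (LC3A) had 3218 in V156D and 3627 in wild type (-0.17), with a second probe set at -0.21. Map1lc3b (LC3B), whose product is the usual marker of autophagosomes, had 4466 in V156D and 5209.8 in wild type (-0.22). The other 3 Map1lc3b probe sets gave -0.12, 0.02 and 0.46, the last from below the floor, and the mean over all 4 was 0.03. The direction of Map1lc3b was therefore not settled by these arrays. Gabarap had 4485 in V156D and 4992 in wild type (-0.15), and its relative Gabarapl1 had 1581 and 1680.2 (-0.09) with a second probe set at -0.27. Gabarapl2 was on the other side, at 902 in V156D and 886 in wild type (0.03). The family median was -0.15, and -0.09 after quantile normalization.

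The cargo receptors, which tie ubiquitinated protein to Atg8 proteins, were both slightly lower by their brightest probe set. Sqstm1 (p62), which accumulates as protein when autophagy is blocked and is itself induced under oxidative stress, had 6241 in V156D and 6890.1 in wild type (-0.14). Its second probe set had the opposite sign, 0.18, and the mean was 0.02. Nbr1 had 1459.7 in V156D and 1683 in wild type (-0.21), with both probe sets below 0. RNA levels do not measure autophagic flux, which depends on protein turnover.

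**Figure D2:**
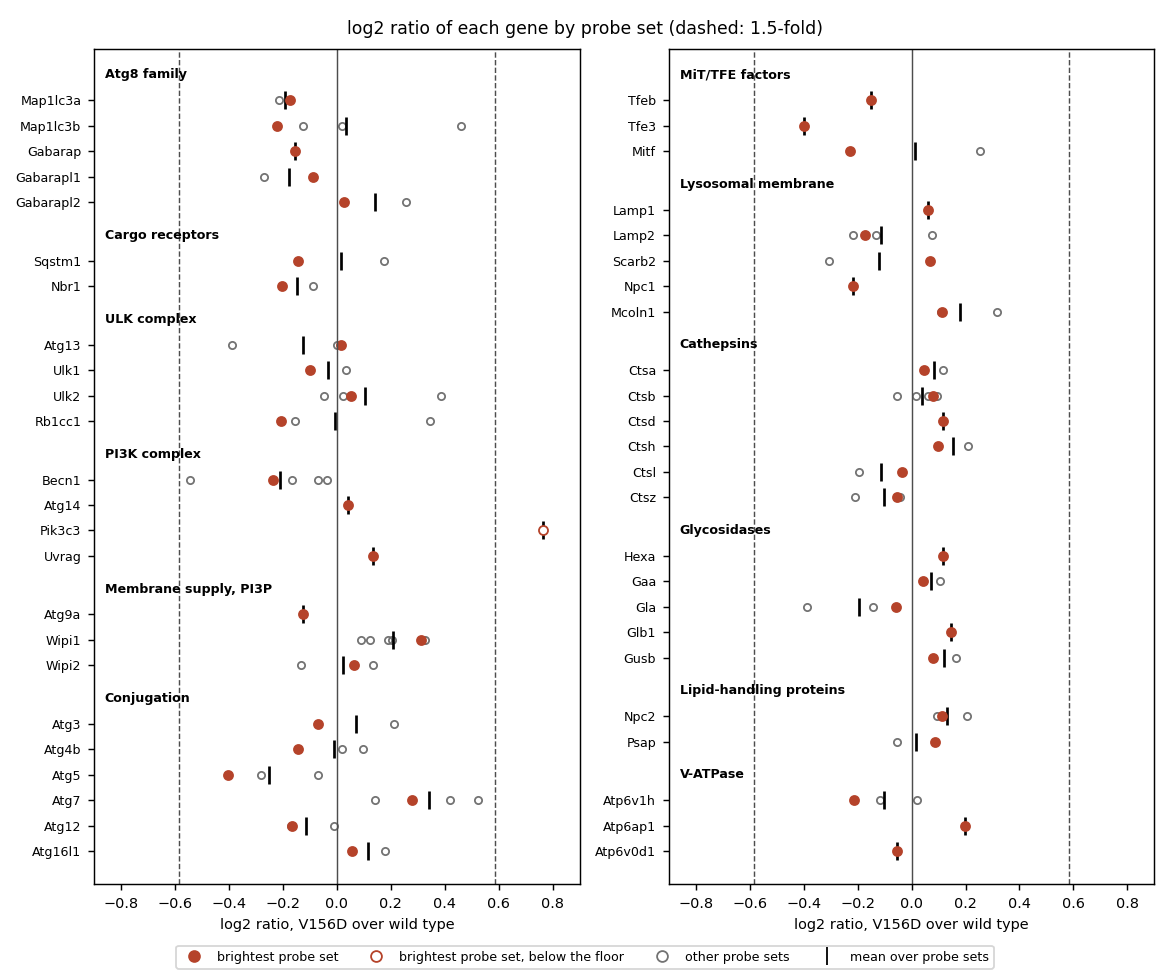
log2 ratio of V156D over wild type for every probe set of the 48 genes, by role. Filled circles are the brightest probe set, open grey circles the others, bars the mean over probe sets and dashed lines 1.5-fold. All filled points lie between -0.40 and 0.31, and Pik3c3 (open red circle, below the floor) is the only gene past a dashed line.

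All 3 genes of the MiT/TFE factors, the regulators of lysosome genes, had ratios below 0. Of all 11329 genes at or above the floor, 6231 were below 0. Tfe3 had an intensity of 504 in V156D and 665 in wild type, 1.32-fold lower (-0.40), from its only probe set. Tfeb had 321 in V156D and 356 in wild type (-0.15), also from 1 probe set. Mitf had 140.1 in V156D and 164 in wild type (-0.23), whereas its second probe set, below the floor, gave 0.25 and the mean was 0.01. The 3 ratios stayed below 0 after median centring, quantile normalization, loess correction and the offset of 32. None reached 1.5-fold.

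MiT/TFE proteins bind a palindromic E-box variant in the promoters of many lysosome genes, known as the CLEAR element, whose consensus is TCACGTGA with a further G before it and a C after it. Promoters from RefSeq (GRCm38.p6, from 250 bases before to 50 bases after each gene start) were available for 39 of the 49 genes and were searched on both strands. The full consensus of 10 letters was found in 0 of the 39, and in 0.469% of 17492 protein-coding genes. Its central 8 letters, TCACGTGA, were found in 6 of the 39 genes (15.4%) against 1.41% of protein-coding genes, and the 6-letter core CACGTG, which both longer motifs contain, in 13 of 39 (33.3%) against 8.91%. The 8-letter motif lay in 5 of the 18 lysosome genes with a promoter (Ctsa, Ctsd, Gla, Mcoln1 and Atp6v0d1) and in 1 of 18 autophagy genes (Atg3). Stretches of 4 of these promoters are shown because they carry the central 8 letters of that consensus, given in capitals. They are 5′ to 3′ on the strand of the gene, at chr7:142387895-142387950 (minus) for Ctsd, chr8:3500449-3500504 (plus) for Mcoln1, chrX:134601169-134601224 (minus) for Gla and chr16:45158733-45158788 (plus) for Atg3.
Ctsd: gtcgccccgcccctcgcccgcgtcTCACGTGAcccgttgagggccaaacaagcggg
Mcoln1: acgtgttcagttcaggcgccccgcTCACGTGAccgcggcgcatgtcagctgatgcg
Gla: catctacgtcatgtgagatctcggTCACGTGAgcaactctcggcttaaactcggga
Atg3: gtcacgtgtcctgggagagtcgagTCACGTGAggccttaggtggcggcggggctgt

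The 6 genes with this motif had ratios close to 0 in these arrays, from -0.07 for Atg3 to 0.12 for Ctsd, with a median of -0.00. The match of letters is a description and does not show that a factor was bound there. The genes with the shorter core spanned -0.40 to 0.28, the range set by Atg5 and Atg7. Genes of both signs were thus found among those with the motif.

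Lysosomal hydrolases had ratios close to 0, more often above than below. Among the 6 cathepsins, proteases of the lysosome, 4 were above 0 and the ratios ran from -0.05 to 0.12. Ctsd, an aspartic protease, had 2319 in V156D and 2138 in wild type (0.12). Ctsb, a cysteine protease, had 1843 in V156D and 1744 in wild type (0.08), with 5 probe sets between -0.05 and 0.10. Ctsh, an aminopeptidase, had 914 in V156D and 853 in wild type (0.10), and both probe sets were above 0. Ctsa, which protects other hydrolases as well as cutting peptides, had 1158 in V156D and 1122 in wild type (0.05). The cysteine proteases Ctsl and Ctsz were on the other side. Ctsl had 4474 in V156D and 4582 in wild type (-0.03), and Ctsz had 3304 and 3431 (-0.05) with all 3 probe sets below 0. All 6 ratios were thus close to 0.

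The 5 glycosidases, which take sugars off glycoproteins, glycolipids and proteoglycans, had 4 ratios above 0. Glb1, the beta-galactosidase, was highest with 146 in V156D and 132 in wild type (0.14). Hexa, a beta-hexosaminidase subunit, had 4187 in V156D and 3867 in wild type (0.11). Gusb, the beta-glucuronidase, had 342 in V156D and 324 in wild type (0.08), and a second probe set gave 0.16. Gaa, which digests glycogen, had 1432 in V156D and 1389 in wild type (0.04). Gla, the alpha-galactosidase on the X chromosome, was the exception, with 153 in V156D and 159 in wild type (-0.06), and its 3 probe sets were all below 0, down to -0.39 for one below the floor. Both lipid-handling proteins of the lumen were slightly above 0. Npc2, which passes cholesterol to the membrane protein NPC1, had 4504 in V156D and 4168 in wild type (0.11), with 4 probe sets from 0.09 to 0.21. Psap, the precursor of the saposins that help digest sphingolipids, had 3244 in V156D and 3057 in wild type (0.09), and a second probe set gave -0.05.

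Genes of the lysosomal membrane did not share a direction. Lamp1, a main glycoprotein of that membrane, had 3223 in V156D and 3094 in wild type (0.06). Lamp2, which is needed for fusion with autophagosomes, had 3655 in V156D and 4118 in wild type (-0.17), and its 4 probe sets ran from -0.22 to 0.08. The 2 LAMP genes were thus on either side of 0. Scarb2 (LIMP-2), the carrier of glucocerebrosidase, had 1156 in V156D and 1104 in wild type (0.07), but -0.31 by its second probe set. Npc1, the cholesterol exporter, had 415 in V156D and 482 in wild type (-0.22), opposite in sign to its partner Npc2. Mcoln1, the calcium channel TRPML1, had 187 in V156D and 173 in wild type (0.11), and its 3 probe sets were all above 0, up to 0.32 for the one below the floor. The median of the 5 membrane genes was 0.06 by the brightest probe sets and -0.11 as means over probe sets.

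The V-ATPase is the pump that acidifies the lysosome, and its 3 genes in the set also differed in sign. Atp6ap1, an accessory subunit, had 1404 in V156D and 1225 in wild type (0.20). Atp6v1h, which regulates the pump, had 588 in V156D and 682 in wild type (-0.21), and its probe sets spanned -0.21 to 0.02. Atp6v0d1, of the part in the membrane, had 1022 in V156D and 1062 in wild type (-0.06). Of 12 further V-ATPase genes, 11 were below 0 by the brightest probe set, against 6231 of all 11329 genes at or above the floor. Their median was -0.08, and 8 of the 12 lay within 0.1 of 0, against 40.3% of all genes. The lowest ratio was -0.32 for Atp6v1f (1062 in V156D and 1331 in wild type). Atp6v1e1 was the 1 above 0, at 0.08. As means over probe sets 4 of these 12 were above 0, and after quantile normalization the count was also 4. Of the 12, 0 differed 1.5-fold, against 3.72% of all genes.

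Taking the roles in 2 blocks, the 23 autophagy genes above the floor had a median ratio of -0.10, with 9 above 0 and 14 below. The 21 lysosome genes had a median of 0.07, with 14 above 0 and 7 below. Of all genes at or above the floor, 44.8% were above 0. As means over probe sets, the autophagy median was -0.01, with 11 above 0 and 12 below. The lysosome median was then 0.06, with 13 above 0 and 8 below. Scaling moved the lysosome split, to 16 above 0 after quantile normalization and 17 after the loess correction, with a median of 0.12 in both. It also moved the share of all genes above 0, to 51.5% and 51.0%. With _s_at, _x_at and _a_at probe sets left out, since these can match more than 1 transcript, the autophagy median was 0.01, with 11 of 21 genes above 0. The difference between the blocks was not tested.

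Agreement between probe sets of a gene was close to that over the whole array. For 27 genes of the set more than 1 probe set reached the floor, and 16 of them (59.3%) had probe sets of 1 sign, 8 higher and 8 lower in the V156D array. The same held for 52.5% of 4878 such genes overall. The 8 higher were Wipi1, Atg7, Ulk2, Ctsh, Gaa, Gusb, Mcoln1 and Npc2. The 8 lower were Atg5, Atg12, Becn1, Gabarapl1, Map1lc3a, Nbr1, Rb1cc1 and Ctsz. For 17 of the 27 the brightest ratio was smaller than the range over the gene's own probe sets. The difference between the 2 brightest probe sets had an SD of 0.18 over genes of the set, against 0.26 over all genes.

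**Figure D3:**
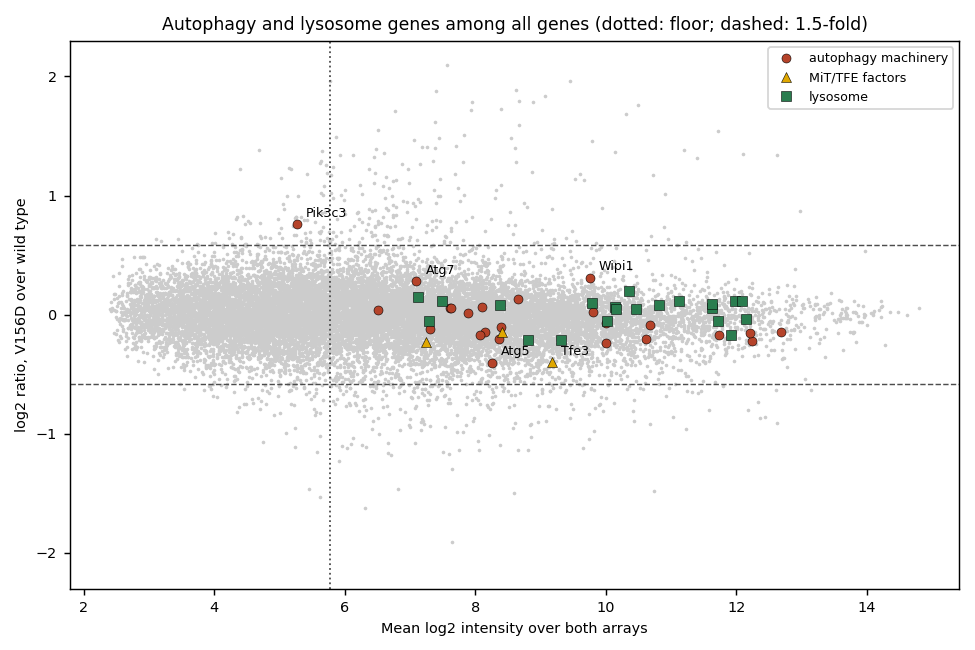
log2 ratio of V156D over wild type (vertical axis) against the mean log2 intensity of both arrays (horizontal axis) for all 18193 genes (grey) and the 48 autophagy and lysosome genes (coloured by block). The 47 genes right of the dotted floor all lie between the dashed lines of 1.5-fold, and Pik3c3 at 0.76 lies left of the floor.

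Other genes of the pathway were listed by function, and 6 of them at or above the floor differed at least 1.5-fold. Pik3r4 and Ctsk were higher and Rragd, Bag3, Hspb8 and Gclc lower in the V156D array. The lists held 25, 23, 12, 21, 15, 5 and 6 genes at or above the floor. Over all genes there, 3.72% differed by that much, 1.7% higher and 2.02% lower. Of 25 further autophagy genes at or above the floor, 1 was at least 1.5-fold higher and 0 were lower by that much. The 1 was Pik3r4 (VPS15), the regulatory subunit that binds the kinase encoded by Pik3c3. It had 114 in V156D and 68.5 in wild type, a ratio of 0.73 from 1 probe set, or 0.54 with the offset of 32, short of 1.5-fold. Pik3r4 and Pik3c3 thus had ratios of the same sign, each from a single probe set. The lowest of this list was Vmp1, an ER protein needed to form autophagosomes, with 2397 in V156D and 3188 in wild type (-0.41), or -0.04 by its second probe set.

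Of 23 further hydrolases, 1 was at least 1.5-fold higher and 0 were lower by that much, against 1.7% and 2.02% of all genes. Ctsk, the collagen-cutting cathepsin of osteoclasts that fibroblasts also express, had 1095 in V156D and 498 in wild type, 2.20-fold higher (1.14) from 1 probe set. Of 8 fibroblast markers, 7 had ratios above 0 and 5 were at least 1.5-fold higher, against 1.7% of all genes. Col1a2 (0.53), Dcn (0.09) and Pdgfra (-0.10) fell short of 1.5-fold. The median of the fibroblast markers was 1.03, and their summed intensity was 61280 in V156D against 37828.5 in wild type. Of the other 7 osteoclast markers none was 1.5-fold higher, Calcr, Ocstamp, Dcstamp, Atp6v0d2 and Oscar lay below the floor, and Acp5 had 149 in V156D and 218 in wild type (-0.55). The part of these cells in the Ctsk value was not tested. Manba, the beta-mannosidase, was the lowest hydrolase with 69.5 in V156D and 91.0 in wild type (-0.39).

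Macrophages are rich in lysosomes, and their markers gave little signal in either array. Of 11 macrophage markers, 4 lay at or above the floor, with ratios from -0.34 to 0.17. None of these 4 differed 1.5-fold, against 3.72% of all genes. The summed intensity of the list was 1674 in V156D and 1968 in wild type, most of it from Cd14 (1187 and 1500.4). The other 7, Adgre1, Ptprc, Tyrobp, C1qa, C1qb, Mrc1 and Fcgr3, were below the floor as means of both arrays, and Ptprc had 10.8 in V156D and 11.1 in wild type. Fcgr3, an Fc receptor, had the highest ratio of the list, with 58.4 in V156D and 40.4 in wild type (0.53). Endothelial markers had a summed intensity of 508 in V156D and 264 in wild type. By the V156D signal 5 of them reached the floor, and by the wild-type signal 2. As means of both arrays 3 did, and 2 of these, Cdh5 and Emcn, were at least 1.5-fold higher, against 1.7% of all genes. Cdh5 had 144 in V156D and 55.1 in wild type, just above the floor of 54.6. Emcn had 38.2 in wild type, so it passed the floor only through its V156D signal. A second Cdh5 probe set gave 0.11. With the floor at the 60th percentile, 1 of 2 was 1.5-fold higher.

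The mTORC1 kinase sits on the lysosome and holds TFEB in the cytoplasm when nutrients are plentiful. Of 21 genes of mTORC1 and its lysosomal regulators, 0 were at least 1.5-fold higher and 1 was lower by that much. The shares of all genes were 1.7% higher and 2.02% lower. Rragd, a Rag GTPase and itself a known target of MiT/TFE factors, had 46.7 in V156D and 99.1 in wild type, 2.12-fold lower (-1.09). The V156D value lay below the floor, so Rragd passed it only through its wild-type signal. The other 2 Rragd probe sets, below the floor, reached up to 0.10, and the mean was -0.36. With the floor at the 60th percentile, and as means over probe sets, 0 of 19 genes of the list were past 1.5-fold. Rptor, the raptor subunit, was highest with 325 in V156D and 279 in wild type (0.22), and Mtor itself had 217 in V156D and 216 in wild type (0.00). Among 15 genes that deliver hydrolases to lysosomes 0 differed 1.5-fold, against 3.72% of all genes. Igf2r, a mannose 6-phosphate receptor, was highest at 3959 in V156D and 3318 in wild type (0.26). M6pr, a second such receptor, had 712 in V156D and 728 in wild type (-0.03). Gnptab, which makes the mannose 6-phosphate tag, was lowest at 102 in V156D and 114 in wild type (-0.16).

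Chaperone-assisted autophagy, in which BAG3 and HSPB8 hand misfolded protein to p62, held 2 of the 4 pathway genes that were at least 1.5-fold lower, with Rragd and Gclc. Of its 5 genes above the floor, 2 were at least 1.5-fold lower and 0 higher, against 2.02% and 1.7% of all genes. Bag3 had 2324 in V156D and 4042 in wild type (-0.80) from 1 probe set. Hspb8 had 302 in V156D and 665 in wild type (-1.14), with 3 probe sets from -1.18 to -0.16. Both genes are targets of the heat shock factor HSF1, and Hspa8, a constitutive Hsp70 that works with them, had 11500.4 in V156D and 14133 in wild type (-0.30). Stub1 (CHIP), the ubiquitin ligase that marks the client protein in this complex, had 1369 in V156D and 1309 in wild type (0.07). The receptor gene Sqstm1 had -0.14 by its brightest probe set and 0.18 by its second, both short of 1.5-fold, so its direction was not settled. Targets of NRF2, which also induces Sqstm1, had ratios below 0 for 6 of 6 genes above the floor, from -0.62 for Gclc to -0.04 for Gclm. Of all 11329 genes at or above the floor, 6231 were below 0. After quantile normalization, and after the loess correction, 5 of the 6 targets were below 0 and 1 above. The median of these targets was -0.35, or -0.21 as means over probe sets. Gclc, of glutathione synthesis, was the 1 past 1.5-fold, with 158 in V156D and 243 in wild type. It fell short of 1.5-fold, at -0.39, as a mean over probe sets. With the offset of 32, 0 of these targets were past 1.5-fold.

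**Figure D4:**
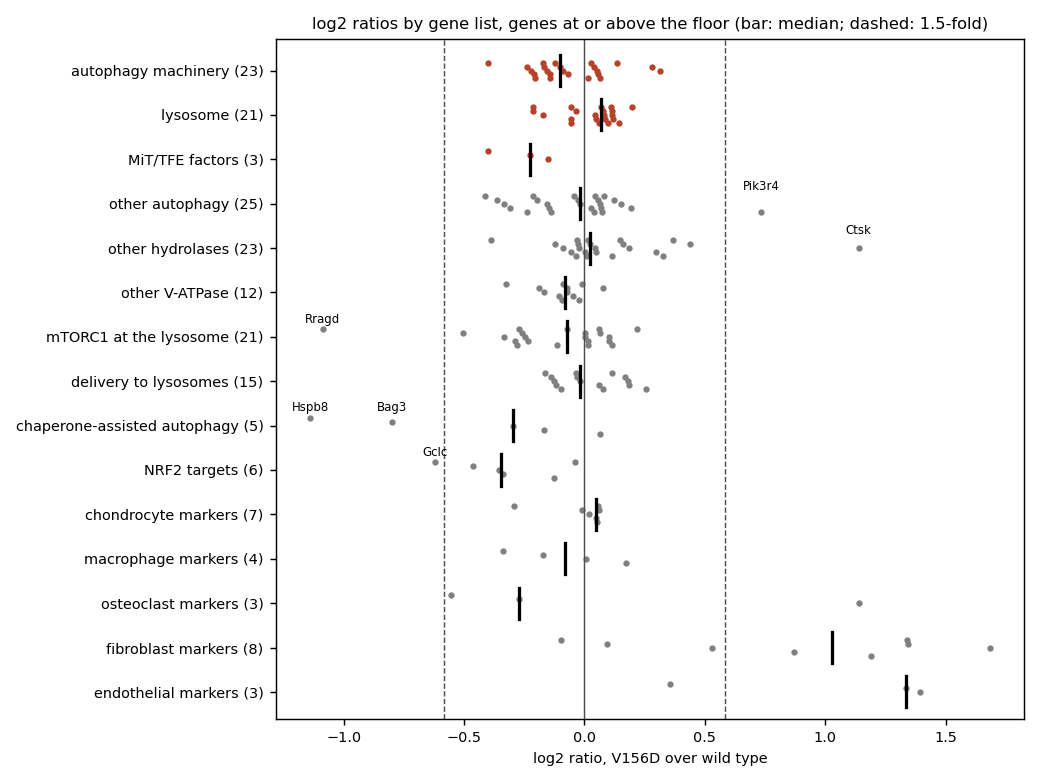
log2 ratio of V156D over wild type for genes at or above the floor in each list (number of genes in brackets), with the median as a bar and dashed lines at 1.5-fold. Red points are the 47 autophagy and lysosome genes, all inside the dashed lines, and grey points are the other pathway lists and cell markers. Among the grey points Hspb8, Rragd and Bag3 lie lowest, and the highest are some of the fibroblast and endothelial markers.

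Transcripts that depend on sex differed between the arrays, and 4 of the genes lie on the X chromosome. Xist had 5006 in V156D and 7755 in wild type, and the Y-linked Eif2s3y had 489.7 in V156D and 229.9 in wild type. The X-linked genes were Tfe3 (-0.40), Lamp2 (-0.17), Gla (-0.06) and Atp6ap1 (0.20), so 3 were below 0 and 1 above. Among the other 43 genes, 22 were higher and 21 lower in the V156D array, with a median ratio of 0.01. How far sex contributed to any of these values was not tested.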

How the data were processed

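Per the labels' protocols, biotin-labelled cRNA was made from 6 µg of total RNA and hybridised to an Affymetrix mouse genome array. The authors deposited a linear intensity for each of 45037 probe sets on each array. MAS5 appears in the submitters' processing notes, without version, settings or scaling target. Gene symbols came from GEO's annotation of the platform. Of 45037, 34945 had 1 symbol and were used, 932 had several and 9160 were unnamed here. All 112 probe sets of the set kept their symbol when matched by Entrez identifier to RefSeq (GRCm38.p6).

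The log2 of each intensity was used without further normalization. Each gene took its brightest probe set, and the floor was the 50th percentile of mean log2 signal over all probe sets. With 1 array per genotype, a gene was counted when it differed 1.5-fold, without a test. Precision is limited by there being 2 arrays. The members, lists and motifs were chosen with earlier results of these data known. Every member could be named, and of each other list the highest, the lowest and any gene past 1.5-fold. Other genes were named after their values were seen. Alternatives were median centring, quantile normalization, a loess correction (span 0.3), an offset of 32, a floor at the 40th percentile, at the 60th, or no floor, means over probe sets, leaving out _s_at, _x_at and _a_at probe sets, and thresholds of 0.32 on the log2 scale and 2-fold. The scripts were tested on simulated data. Python 3.11.15, numpy 2.4.6, pandas 2.3.3 and statsmodels 0.14.6 were used.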

Additional observations from a re-analysis of the deposited data

How the results depend on the processing

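The count of autophagy and lysosome genes past 1.5-fold was 0 of 47. It became 1, Pik3c3, with the floor at the 40th percentile and with no floor, because that gene then entered. It was 2 (Atg5 and Tfe3) at the threshold of 0.32 on the log2 scale, and 0 under each other alternative. The median ratio of -0.03 was 0.0164 as means over probe sets, 0.0201 without _s_at, _x_at and _a_at probe sets, 0.0127 after quantile normalization and 0.0201 after the loess correction, so its sign is not settled. Scaling moved the median of all genes by at most 0.03. The number of genes with probe sets of 1 sign stayed between 15 and 19 under the other floors. No paired analysis was possible because each genotype had 1 array. Depth is not defined for arrays. With the offset of 32, the ratio was 0.42 for Pik3c3, 0.54 for Pik3r4 and -0.74 for Rragd, against 0.76, 0.73 and -1.09 without it.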
